A study of Mus musculus with 6 samples.

Results

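The genes of hepatocyte identity examined here, 9 in all, were the bZIP factors Cebpa, Cebpb and Cebpd, the forkhead factors Foxa1, Foxa2 and Foxa3, the CUT homeobox factors Onecut1 and Onecut2, and the prospero homeobox factor Prox1. They were taken by symbol from a fixed list, and all 9 members were found among the 48432 genes of the deposited table and among the 16533 genes that passed the filter on low counts. The libraries were RNA from the liver of mice 10 weeks old, 3 from Albumin-Cre controls (Ctl) and 3 from a liver-specific Klf15 knockout (Li-KO). Albumin-Cre is a transgene that expresses Cre recombinase from the albumin promoter, which is active in hepatocytes. A knockout of this kind leaves Klf15 intact in liver cells that do not use the albumin promoter. Only the control labels name the Cre, and no label names the deleted part of Klf15, or the sex or feeding state of the mice. The labels number the libraries of a group 0, 1 and 2 without stating that they come from separate mice, and the spread behind each p-value may therefore be technical.

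C/EBP proteins bind DNA as dimers and drive the metabolic and acute phase genes of hepatocytes. FOXA proteins are pioneer factors that open liver enhancers, and Onecut proteins act in hepatoblasts, bile ducts and adult hepatocytes. Prox1 is needed for hepatocyte outgrowth in the embryo and represses bile acid synthesis in the adult, and it also specifies lymphatic endothelium. The comparison of Li-KO with Ctl asks whether the RNA of these factors depends on hepatic Klf15, a zinc finger factor of the Kruppel-like family whose members bind CACCC boxes and GC-rich sites.

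Depth was 30132499 to 42782318 estimated fragments per library over genes that were measured in every library. Levels are CPM, counts relative to the scaled size of the library, and levels between genes are compared in FPKM, which is per length. Values after ± are SD over n = 3 libraries, except after a log2 fold change (Li-KO minus Ctl), where they are SE. Klf15 was at 345, 174 and 196 CPM in Ctl, against 54.3, 41.6 and 51.8 CPM in Li-KO, a 4.84-fold lower level (adjusted p = 0.00275). A call means an adjusted p under 0.05 in edgeR's quasi-likelihood test over all genes. Calls made up 12.0% of all genes tested, with 5.90% lower and 6.11% higher in Li-KO. DESeq2, given beside edgeR for some lists, called 3158 of 15237 genes. In bulk liver, fewer cells of a type and less RNA per cell cannot be told apart.

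Of the 9 factors, Prox1 passed the test and was lower in Li-KO, and none passed as higher. The other 8 did not pass, and 3 of the 9 had an unadjusted p under 0.05. That level was common over all genes tested with edgeR, where the unadjusted p of 0.0502 of Cebpb went with an adjusted p of 0.170. Counts at that level, here and in the lists below, are therefore not read as a change of a list. A negative log2 fold change was seen in 7 of 9, where 50.8% of all genes tested had one, and the median over the 9 was -0.57, beside -0.01 for all genes tested. The 3 values of Ctl lay above the 3 of Li-KO for Cebpd, Foxa1 and Prox1, a separation in this direction that 17.8% of all genes tested showed. Cebpa and Foxa3, the most abundant C/EBP and FOXA genes per length, differed least between the groups.

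**Figure D1:**
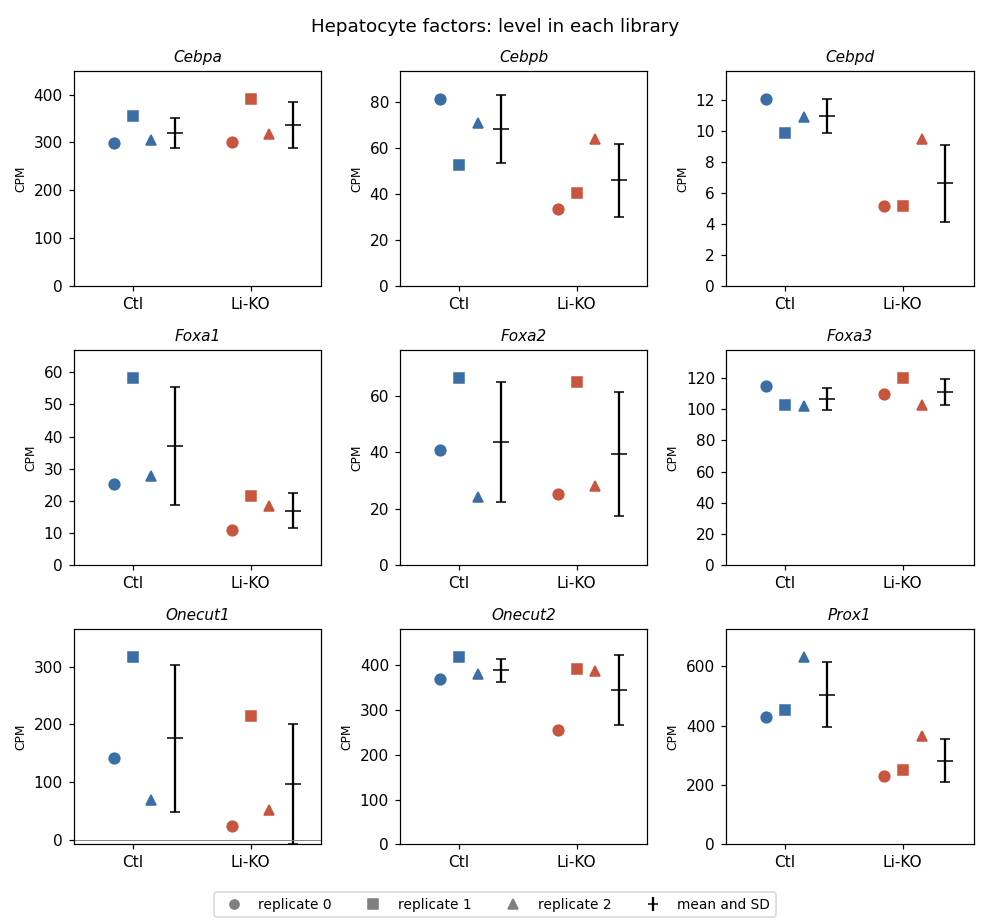
CPM of each hepatocyte factor in the 3 Ctl (blue) and 3 Li-KO (red) libraries, with the marker shape giving the replicate number and the black bar the group mean and SD. Prox1, Foxa1 and Cebpd have groups that do not overlap, while Onecut1 runs from 69.4 to 317 CPM within Ctl and from 24.9 to 215 CPM within Li-KO.

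Prox1 (ENSMUSG00000010175.13, chromosome 1, 190118035 to 190170714, minus strand, mm10) was at 430, 451 and 630 CPM in Ctl replicates 0, 1 and 2. In Li-KO replicates 0, 1 and 2 it was at 230, 252 and 364 CPM. The highest Li-KO library lay below the lowest Ctl library, and replicate 2 was the highest in both groups. The means of 503 ± 110 and 282 ± 71.8 CPM gave a 1.78-fold lower level, a log2 fold change of -0.83 ± 0.22 (adjusted p = 0.0426). The call stood close to the threshold. It ended without any one of Ctl replicates 0, 1 and 2 and Li-KO replicates 0 and 1, with adjusted p of 0.0519 to 0.152 and log2 fold changes of -0.94 to -0.64, and held without Li-KO replicate 2 (adjusted p = 0.0160).

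In FPKM the difference in Prox1 was smaller. The FPKM values were 42.5, 42.9 and 57.4 in Ctl, against 25.8, 30.6 and 36.3 in Li-KO, which still did not overlap. On the log2(FPKM + 0.1) scale the log2 fold change was -0.62 and did not pass with limma (adjusted p = 0.0845). The FPKM that each Prox1 count was worth differed between the groups: relative to the median gene of each library it was -0.065, -0.118 and -0.180 (log2) in Ctl, against 0.147, 0.241 and -0.025 in Li-KO. This difference of 0.242 was matched or exceeded in either direction by 2.5% of the 11987 genes with at least 50 counts in every library, and for the other 8 factors it was between -0.076 and 0.095. GENCODE lists 3 Prox1 transcripts. Whether transcript use differed was not tested.

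The start of Prox1 was compared with those of Onecut1, the factor that varied most between libraries, and Foxa3, among those that varied least, to show their CACCC matches. The windows are the 250 bases before the outermost RefSeq start (GRCm38.p6, the mm10 assembly), 5′ to 3′ on the gene's strand, with CACCC or its complement GGGTG in capitals. They lie at chr1:190170828-190171077 on the minus strand for Prox1, chr9:74861671-74861920 on the plus strand for Onecut1 and chr7:19023540-19023789 on the minus strand for Foxa3.
Prox1: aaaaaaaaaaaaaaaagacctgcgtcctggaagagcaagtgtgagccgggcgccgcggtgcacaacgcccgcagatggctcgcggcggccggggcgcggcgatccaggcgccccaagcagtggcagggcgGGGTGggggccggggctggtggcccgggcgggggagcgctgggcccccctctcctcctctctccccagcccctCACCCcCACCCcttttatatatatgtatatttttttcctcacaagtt
Onecut1: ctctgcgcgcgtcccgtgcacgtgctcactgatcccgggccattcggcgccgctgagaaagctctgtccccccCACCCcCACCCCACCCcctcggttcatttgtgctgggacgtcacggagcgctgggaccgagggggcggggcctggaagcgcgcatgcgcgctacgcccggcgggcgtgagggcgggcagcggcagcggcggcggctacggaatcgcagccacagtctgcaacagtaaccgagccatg
Foxa3: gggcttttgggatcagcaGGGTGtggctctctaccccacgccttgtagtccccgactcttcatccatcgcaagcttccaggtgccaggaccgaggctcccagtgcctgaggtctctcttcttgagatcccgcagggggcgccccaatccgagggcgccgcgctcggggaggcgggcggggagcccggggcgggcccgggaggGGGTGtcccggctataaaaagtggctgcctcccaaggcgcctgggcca

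Prox1 and Onecut1 each had 3 CACCC matches and Foxa3 had 2. In Prox1 they began 120, 47 and 41 bases before the start, and in Onecut1 177, 171 and 166 bases before it. Windows were on hand for 7 of the 9 factors, and 6 of these 7 held at least 1 CACCC match, where 52.0% of 32851 promoter windows of the same length did. At least 3 matches were in 6.92% of all windows. The motif TTNNGCAA of C/EBP was in none of the 7 windows (9.56% of all), TGTTTNC of FOXA was in Foxa1 (17.8% of all) and ATTGAT of Onecut was in Foxa2 (6.72% of all), each searched on both strands, and no CACCC match overlapped another motif. The second RefSeq start of Prox1 had 0 CACCC matches. A CACCC match was present before genes that did not pass, Foxa3 among them. The RefSeq start of Prox1 lies upstream of the start that GENCODE gives, and the letters after it were not found in the GENCODE transcripts.

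Of the transcripts annotated beside Prox1 on the opposite strand, only Prox1os was tested, and it did not pass. Prox1os, an antisense RNA that overlaps its 5′ end, was at 4.22, 5.79 and 6.47 CPM in Ctl, against 4.58, 6.94 and 4.13 CPM in Li-KO (log2 fold change -0.08 ± 0.27, adjusted p = 0.884). Gm28172 had 31 counts in all 6 libraries together and was not tested. The kit keeps the strand, but no label or header states whether the counting used it, so reads of overlapping genes cannot be told apart here.

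The 3 genes that resembled Prox1 most were taken across the 6 libraries, among 11931 genes with a mean of at least 1 CPM, by the root mean square difference of log2 CPM centred on each gene's mean. Hyou1, a chaperone of the endoplasmic reticulum, was the nearest at 0.048, with 631, 614 and 904 CPM in Ctl, against 338, 378 and 547 CPM in Li-KO. Tmed5, a trafficking protein of the early secretory pathway, followed at 0.075, with 201, 217 and 256 CPM against 102, 115 and 166 CPM. Pigr, the receptor that carries IgA into bile, was at 0.088, with 1864, 1763 and 2248 CPM against 955, 966 and 1426 CPM. The match covered both groups, so a lower level in Li-KO was part of the choice of these genes. Their test results are therefore not separate evidence of a change. Hyou1 did not pass (adjusted p = 0.0600), and Tmed5 and Pigr passed as lower (adjusted p = 0.0325 and 0.0371), with calls that ended without Ctl replicate 1 or 2 or Li-KO replicate 0 or 1, and for Pigr also without Ctl replicate 0.

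Prox1 also marks lymphatic endothelium. Of 5 markers of those cells, 5 were tested and edgeR called 0, as did DESeq2, with 0 at an unadjusted p under 0.05 and summed levels of 63.3 to 105 CPM in Ctl, against 65.4 to 117 CPM in Li-KO. None of them was at 0, but Flt4 (59.4 CPM in Ctl) and Lyve1 (20.0 CPM) made up most of the sum. Lyve1 is also on the list of sinusoidal markers. Pdpn, Ccl21a and Mmrn1 were low, at 0.326, 0.698 and 3.21 CPM in Ctl, against 0.548, 0.680 and 1.72 CPM in Li-KO. These markers therefore measure the lymphatic part poorly. Hepatocyte markers gave 1 lower (Tdo2, a tryptophan-degrading enzyme) and 1 higher (Asgr2, an asialoglycoprotein receptor subunit) of 7 tested, with sums of 20092 to 29714 CPM in Ctl, against 21780 to 25053 CPM in Li-KO. DESeq2 called 3 of these 7. The calls of both marker lists are beside 12.0% of all genes tested with edgeR and 3158 of 15237 genes with DESeq2. The other 4 hepatocyte markers, Alb, Cyp2e1, Ahsg and Cps1, were among the genes that Cuffdiff skipped because their bundles held too many fragments. The call of Asgr2 ended without Ctl replicate 1 or 2 or Li-KO replicate 1.

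None of the FOXA genes passed the test, and their levels and spread between libraries differed. Foxa1 (ENSMUSG00000035451.6, chromosome 12, 57540628 to 57546916, minus strand) was at 25.2, 58.2 and 27.6 CPM in Ctl replicates 0, 1 and 2. In Li-KO replicates 0, 1 and 2 it was at 10.9, 21.5 and 18.5 CPM. The groups did not overlap, and Ctl replicate 1 stood apart from the 2 other Ctl libraries, at 2.31 times the lowest. The log2 fold change was -1.13 ± 0.36, the most negative of the 9, and it did not pass (adjusted p = 0.0740). Foxa1 was called lower by DESeq2 (adjusted p = 0.00888), where 10.2% of genes were called lower, and without the filter on low counts (adjusted p = 0.0242), where 4.54% were. Without Ctl replicate 1 the log2 fold change was -0.62 (adjusted p = 0.244).

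Foxa2 (ENSMUSG00000037025.11, chromosome 2, 148042877 to 148046969, minus strand), which acts in bile acid and glucose metabolism of adult hepatocytes, was at 40.8, 66.2 and 24.0 CPM in Ctl. It was at 25.2, 64.7 and 28.2 CPM in Li-KO, so the groups overlapped almost fully and replicate 1 was the highest of each. The log2 fold change was -0.15 ± 0.43 (adjusted p = 0.854). The long non-coding RNA 9030622O22Rik, whose start lies within 5 kb of the end of Foxa2 on the same strand, was at 16.8, 38.5 and 18.5 CPM in Ctl, against 19.1, 15.0 and 15.6 CPM in Li-KO and did not pass (adjusted p = 0.247). Its highest library was replicate 1 in Ctl and replicate 0 in Li-KO.

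Foxa3 (ENSMUSG00000040891.6, chromosome 7, 19013284 to 19023538, minus strand), which is linked to glucose and lipid metabolism, was the steadiest of the 9. It was at 115, 103 and 102 CPM in Ctl, against 110, 120 and 103 CPM in Li-KO. The coefficient of variation was 6.56% in Ctl, against 7.69% in Li-KO, and the log2 fold change was 0.06 ± 0.11 (adjusted p = 0.787). Per length, Foxa3 made up 53.2% to 74.0% of the FPKM of the FOXA genes in Ctl, against 61.8% to 78.4% in Li-KO. The share of Foxa1 was 9.19% to 17.2% in Ctl, against 4.81% to 8.24% in Li-KO. The summed FOXA level was 71.1, 81.3 and 59.5 FPKM in Ctl, against 55.0, 75.9 and 57.6 FPKM in Li-KO, and these ranges overlapped.

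**Figure D2:**
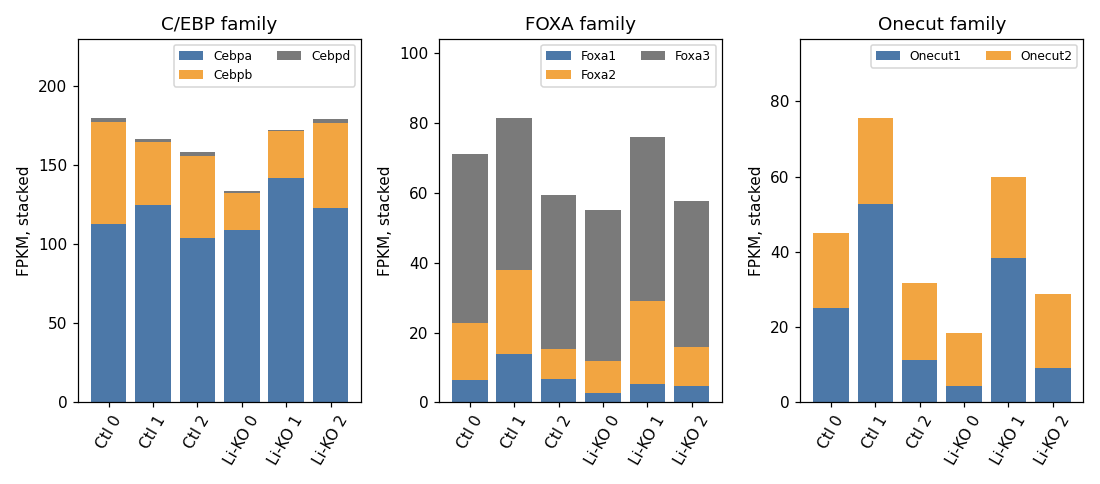
FPKM of the C/EBP, FOXA and Onecut genes stacked by family in each library, with 1 bar per library. Cebpa and Foxa3 hold the largest part of their families in all 6 libraries, while the Onecut total runs from 18.4 to 75.4 FPKM with the level of Onecut1.

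The C/EBP genes have a single exon each. In Li-KO, Cebpb and Cebpd varied more between libraries than Cebpa, while in Ctl the coefficients of variation of Cebpa and Cebpd were 9.73% and 9.84%. Cebpa (ENSMUSG00000034957.10, chromosome 7, 35119293 to 35121928, plus strand), which maintains the metabolic program of hepatocytes, was at 299, 355 and 305 CPM in Ctl. It was at 300, 391 and 318 CPM in Li-KO, within or above the range of Ctl (log2 fold change 0.07 ± 0.15, adjusted p = 0.781). The antisense RNA Gm45091, which overlaps its first bases, was at 0.503 ± 0.183 CPM in Ctl, against 0.502 ± 0.0479 CPM in Li-KO.

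Cebpb (ENSMUSG00000056501.3, chromosome 2, 167688915 to 167690418, plus strand) and Cebpd (ENSMUSG00000071637.5, chromosome 16, 15887286 to 15891031, plus strand) are induced in the acute phase response. Cebpb was at 81.5, 52.6 and 71.2 CPM in Ctl, against 33.6, 40.6 and 63.9 CPM in Li-KO. Cebpd was at 12.1, 9.90 and 10.9 CPM in Ctl, against 5.19, 5.17 and 9.53 CPM in Li-KO. Li-KO replicate 2 stood inside the Ctl range for Cebpb and just below it for Cebpd, Li-KO replicates 0 and 1 stood below it in both genes, and Ctl replicate 0 was the highest. The log2 fold changes of -0.57 ± 0.25 for Cebpb and -0.72 ± 0.26 for Cebpd did not pass (adjusted p = 0.170 and 0.107). Without Li-KO replicate 2 they were -0.89 and -1.08 and passed (adjusted p = 0.0290 and 0.0149), in a fit that called 8.47% of genes lower.

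Each of these genes has a neighbour on the opposite strand that overlaps it. Tmem189, whose annotated start lies inside Cebpb, was at 18.6, 29.7 and 26.6 CPM in Ctl, against 5.03, 8.99 and 13.6 CPM in Li-KO and passed as lower (log2 fold change -1.44 ± 0.34, adjusted p = 0.0313). Its call ended without Ctl replicate 1 or 2 or Li-KO replicate 1 (adjusted p up to 0.114). Spidr, which overlaps the end of Cebpd, was at 10.2 ± 0.544 CPM in Ctl, against 6.68 ± 1.46 CPM in Li-KO and did not pass (adjusted p = 0.0817). How far fragments of the overlaps were assigned to one gene or the other was not tested.

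Per length, Cebpa made up 63.0% to 75.0% of the C/EBP FPKM in Ctl, against 68.7% to 82.3% in Li-KO. Cebpb held 23.8% to 35.7% in Ctl, and 17.5%, 17.1% and 30.2% in Li-KO replicates 0, 1 and 2. Of 25 acute phase genes tested, 1 was called higher (Lcn2, an iron-binding acute phase protein, at 8.26 ± 5.76 CPM in Ctl, against 74.7 ± 18.4 CPM in Li-KO) and 0 lower, with a median log2 fold change of 0.07, while DESeq2 called 2 and 3 had an unadjusted p under 0.05. The log2 fold change of Lcn2 was 3.18, and 3.92 without Ctl replicate 2. Of 17 immediate early genes tested, 2 were called lower and 0 higher. They were Btg2, an antiproliferative gene that fell from 37.8 ± 7.39 to 7.32 ± 1.86 CPM, and the nuclear receptor Nr4a1, which fell from 5.27 ± 1.45 to 2.03 ± 0.816 CPM. With single libraries left out, the call of Nr4a1 held only without Li-KO replicate 0. DESeq2 called 5 immediate early genes, and 7 had an unadjusted p under 0.05. Of 12 glucocorticoid receptor targets, edgeR called 1 (Lcn2) and DESeq2 4, with 4 at an unadjusted p under 0.05. The calls in these 3 lists stand beside 12.0% of all genes tested with edgeR and 3158 of 15237 genes with DESeq2. Fos, the prototype immediate early gene, was at 6.62 ± 2.22 and 6.98 ± 5.05 CPM.

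Onecut1 was the most variable factor and Onecut2 one of the steadiest in Ctl. Onecut1 (ENSMUSG00000043013.10, chromosome 9, 74861921 to 74891781, plus strand), which controls liver and bile duct development and glucose metabolism, was at 142, 317 and 69.4 CPM in Ctl. In Li-KO it was at 24.9, 215 and 52.3 CPM. The highest library was 4.57 times the lowest in Ctl, against 8.63 times in Li-KO, and replicate 1 was the highest of both. A spread of at least 4.57 times in both groups was seen in 0.19% of the 8779 genes with a mean of at least 10 CPM. The log2 fold change of -0.86 ± 0.77 did not pass (adjusted p = 0.497), and it ran from -2.19 without Li-KO replicate 1 to -0.10 without Ctl replicate 1.

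Onecut1 was the one factor whose deposited counts were not whole numbers. The long non-coding RNA Gm20649 overlaps it on the same strand and was at 7.93, 15.0 and 11.5 CPM in Ctl, against 7.41, 19.9 and 3.74 CPM in Li-KO (adjusted p = 0.880). Its replicate 1 was also the highest of each group. No label or header states how fragments were divided between them, and the value of Onecut1 carries that uncertainty.

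Onecut2 (ENSMUSG00000045991.18, chromosome 18, 64340020 to 64400987, plus strand), its paralog, was at 369, 418 and 380 CPM in Ctl, against 255, 392 and 387 CPM in Li-KO. Li-KO replicate 0 lay below the other 5 libraries, and the log2 fold change was -0.17 ± 0.18 (adjusted p = 0.561). Its exons span 16234 bases against 4113 for Onecut1, so its CPM overstates it beside the others, and per length it was at 21.0 ± 1.44 FPKM in Ctl, against 18.4 ± 3.90 FPKM in Li-KO. Onecut1 made up 35.5% to 70.0% of the FPKM of the pair in Ctl, against 23.9% to 64.1% in Li-KO.

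**Figure D3:**
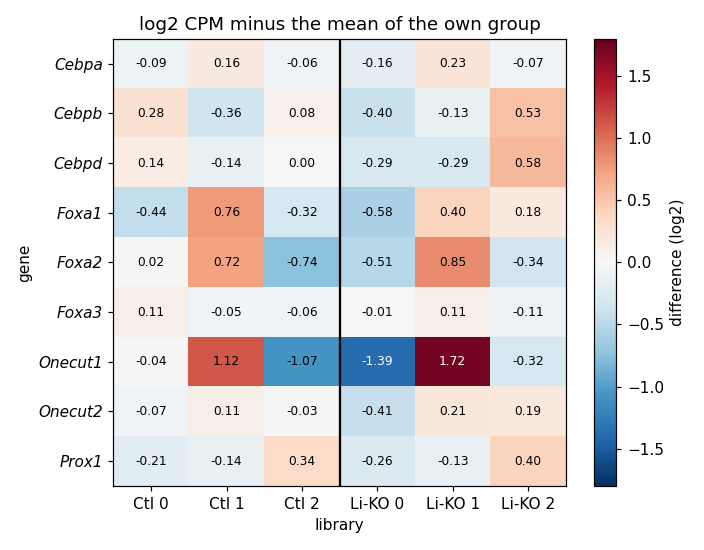
Difference of log2 CPM from the mean of the library's own group, with 1 row per factor and 1 column per library (red above, blue below, the value in each cell). Replicate 1 is above its group mean for Onecut1 (1.12 and 1.72), Foxa2 (0.72 and 0.85) and Foxa1 (0.76 and 0.40), and Cebpb and Cebpd are highest in Li-KO replicate 2.

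Of the 9 factors, 5 were highest in replicate 1 in both groups: Cebpa, Foxa1, Foxa2, Onecut1 and Onecut2. Among all genes tested, 8.5% had that order. The libraries of the same number are not stated to share a litter, day or batch. Genes that the textbook places under these factors stood the other way in several cases. Of 10 FOXA targets tested, 6 were lowest in replicate 1 in both groups, as were 4 of 9 Onecut targets and 8 of 17 C/EBP targets, where 10.3% of all genes tested were. So were 5 of 12 glucocorticoid receptor targets: Tsc22d3, Sgk1, Tat, Dusp1 and Lcn2. Of these, Tat is also a FOXA, Onecut and C/EBP target and Lcn2 a C/EBP target, while Tsc22d3, Sgk1 and Dusp1 are on none of those lists. Whether being lowest there is particular to targets of these factors was not tested. The lists share genes, and this order was looked at after the values were seen.

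Pck1, the rate-limiting enzyme of gluconeogenesis and a target on the 3 lists, was at 6436, 1840 and 2963 CPM in Ctl, against 5582, 3572 and 5343 CPM in Li-KO. Igfbp1, a fasting-induced binding protein of insulin-like growth factors, was at 170, 14.6 and 29.6 CPM in Ctl, against 38.3, 11.2 and 109 CPM in Li-KO. Tat, tyrosine aminotransferase, was at 6477, 1815 and 2643 CPM in Ctl, against 5390, 2761 and 4591 CPM in Li-KO. In each of these, replicate 1 was the lowest of its group, where Onecut1 and Foxa2 were highest. These 3 genes did not pass between the groups (adjusted p = 0.603, 0.808 and 0.789).

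Of 10 FOXA targets tested, edgeR called 0 and limma-voom 0, while 2 had an unadjusted p under 0.05 and DESeq2 called 2 (median log2 fold change 0.29). Ttr, transthyretin, a classical FOXA target, was at 5400 ± 175 CPM in Ctl, against 7959 ± 1673 CPM in Li-KO (adjusted p = 0.110). Of 9 Onecut targets, 2 were called lower and 0 higher, with a median of -0.01. DESeq2 called 4 and limma-voom 3, and 4 had an unadjusted p under 0.05. Pfkfb1, the liver enzyme that sets fructose-2,6-bisphosphate, fell from 53.3 ± 14.4 to 5.16 ± 1.29 CPM (-3.37 ± 0.26 in log2, adjusted p = 0.000626), and Tdo2 fell as well.

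Of 17 C/EBP targets, 2 were called lower and 2 higher, with a median of 0.22. DESeq2 called 5 and limma-voom 5, and 6 had an unadjusted p under 0.05. Otc, of the urea cycle, and Tdo2 fell, and Lcn2 and the liver glycogen synthase Gys2 rose, the last from 469 ± 11.3 to 716 ± 118 CPM (adjusted p = 0.0357). The call of Gys2 ended without any one Ctl library or without Li-KO replicate 1 (adjusted p up to 0.114). Alb, Apob and Cps1 were skipped in the table. Calls in each of these lists are beside 12.0% of all genes tested with edgeR and 3158 of 15237 genes with DESeq2. With limma-voom, 1999 genes were called in all. Cyp7a1, the enzyme of bile acid synthesis that Prox1 represses, was at 444, 210 and 285 CPM in Ctl, against 126, 313 and 227 CPM in Li-KO (log2 fold change -0.50, adjusted p = 0.391), with groups that overlapped.

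**Figure D4:**
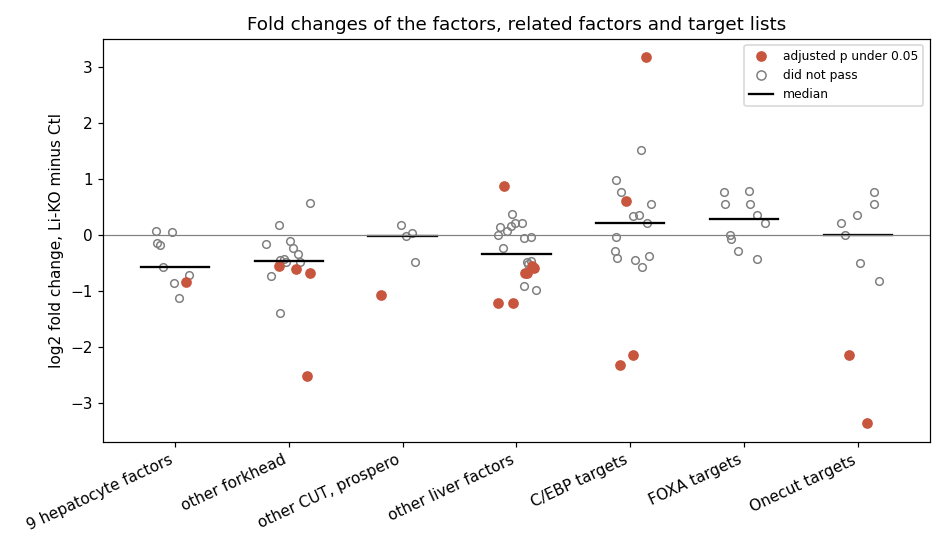
Log2 fold change (Li-KO minus Ctl) of each tested gene of the 9 factors, of related factors and of the target lists, with filled points at an adjusted p under 0.05 and a black line at the median. The factors have a median of -0.57 with Prox1 filled, and the FOXA targets have no filled point.

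Of 16 other forkhead genes, 4 were called lower and 0 higher, where 5.90% of all genes tested were called lower, with a median log2 fold change of -0.46. Foxq1 fell from 56.4 ± 48.8 to 9.82 ± 2.60 CPM (-2.52 ± 0.56 in log2, adjusted p = 0.0276), with 36.8, 112 and 20.4 CPM in Ctl, where replicate 1 was the highest, as in Foxa1. Foxk1 fell from 40.3 ± 4.58 to 25.2 ± 2.17 CPM and Foxn2 from 61.6 ± 3.30 to 41.7 ± 4.80 CPM. Their calls depended on single libraries: that of Foxq1 ended without any one Li-KO library, and its log2 fold change was -1.53 without Ctl replicate 1 (adjusted p = 0.0486); that of Foxk1 ended without Ctl replicate 1 or Li-KO replicate 1, and that of Foxn2 without each library except Li-KO replicate 2. Foxo1, the insulin-regulated forkhead factor of gluconeogenesis, was at 99.4 ± 37.0 CPM in Ctl, against 59.8 ± 19.3 CPM in Li-KO and did not pass (adjusted p = 0.134).

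The 3 other bZIP relatives, Cebpe, Cebpg and Ddit3, gave 0 calls with edgeR and with DESeq2 and 0 unadjusted p under 0.05, and Cebpg, a dimer partner of C/EBP proteins, was at 115 ± 10.7 CPM in Ctl, against 102 ± 23.9 CPM in Li-KO. Onecut3, the third Onecut gene, had 0 counts in all 6 libraries. Prox2, the paralog of Prox1, was at 2.18 ± 0.285 CPM in Ctl, against 2.24 ± 0.587 CPM in Li-KO.

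Of 22 other liver transcription factors that are not nuclear receptors, 6 were called lower and 1 higher, beside 5.90% and 6.11% of all genes tested, with a median of -0.34. Nfix, a nuclear factor I protein, fell from 154 ± 21.5 to 66.2 ± 6.62 CPM (-1.22 ± 0.14 in log2, adjusted p = 0.00277), a call that held with each library left out. Tcf7l2, the Wnt effector, fell from 32.5 ± 5.47 to 14.0 ± 3.62 CPM, with a call that ended without Ctl replicate 1 (adjusted p = 0.0541). Creb3l3, a liver factor of the fasting response bound to the endoplasmic reticulum, rose from 295 ± 28.9 to 544 ± 40.7 CPM, and its call held likewise.

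Markers of other liver cells are given beside 12.0% of all genes called by edgeR and 3158 of 15237 genes called by DESeq2. Of 8 cholangiocyte markers tested, edgeR called 2 and DESeq2 3, with 4 at an unadjusted p under 0.05 and a median log2 fold change of 0.79. Of these, Sox9, a duct transcription factor, was lower at 14.7 ± 2.64 CPM in Ctl, against 2.82 ± 0.646 CPM in Li-KO, and Pkhd1, a ciliary protein of ducts, was higher, with a call that ended without Ctl replicate 2 or Li-KO replicate 0 or 1. The other 6 did not pass and had positive log2 fold changes, from 0.17 for Krt7 to 1.36 for Spp1, osteopontin. The summed level of these markers was 55.0 to 96.1 CPM in Ctl, against 95.5 to 212 CPM in Li-KO. The defining keratins were low: Krt19 was at 1.13 ± 0.571 and 1.92 ± 0.376 CPM and Krt7 at 0.879 ± 0.204 and 0.986 ± 0.497 CPM. Of 7 erythroid markers edgeR called 0, with 5 at an unadjusted p under 0.05 and 3 called by DESeq2, and their sum was 743 to 814 CPM in Ctl, against 296 to 593 CPM in Li-KO, which did not overlap. Of 8 Kupffer cell markers and 8 sinusoidal endothelial markers edgeR and DESeq2 called 0, with 1 and 0 at an unadjusted p under 0.05, and their sums overlapped. Of 9 stellate markers 4 had an unadjusted p under 0.05, and edgeR and DESeq2 each called 1. With edgeR it was Rgs5, which was lower, with a call that ended without Ctl replicate 1 or 2 or Li-KO replicate 1. The median log2 fold change of the 9 stellate markers was 0.01. The collagen genes among them had positive values that did not pass (Col3a1 1.25, Col1a1 1.06 and Col1a2 0.76). Each was highest in Li-KO replicate 0. Of 4 lymphocyte, 2 neutrophil and 2 pancreatic acinar markers tested, edgeR and DESeq2 called 0, with 0 at an unadjusted p under 0.05, and 4 of the 8 acinar markers had no counts. The part of these cells in the values of Prox1, Foxa1 or the Onecut genes was not tested.

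Per length, the order in Ctl began with Cebpa at 114 ± 10.2 FPKM, apart from the next. Cebpb (51.9 ± 12.2 FPKM), Prox1 (47.6 ± 8.52 FPKM) and Foxa3 (45.2 ± 2.77 FPKM) followed with ranges that overlapped. Onecut1 (29.8 ± 21.1 FPKM) overlapped with Foxa3 above it and with Onecut2 below it. Onecut2 overlapped with Foxa2 (16.3 ± 7.60 FPKM), and Foxa2 with Foxa1 (9.05 ± 4.31 FPKM). Cebpd was last at 2.26 ± 0.238 FPKM, apart from Foxa1.

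In Li-KO, Cebpa was again first at 125 ± 16.4 FPKM and Cebpd last at 1.37 ± 0.525 FPKM. Foxa3 (43.9 ± 2.66 FPKM) stood next to Cebpb (35.6 ± 16.2 FPKM), whose range overlapped with its own, and Prox1 (30.9 ± 5.22 FPKM) was lower than Foxa3 and overlapped with Cebpb. The ranges of Prox1 and Foxa3, which overlapped in Ctl, were apart in Li-KO, at 25.8 to 36.3 FPKM and 41.7 to 46.9 FPKM. Foxa1 was at 4.23 ± 1.40 FPKM, below every library of Foxa2, and the ranges of Onecut2, Onecut1 and Foxa2 overlapped. The change of order between groups was not tested.

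**Figure D5:**
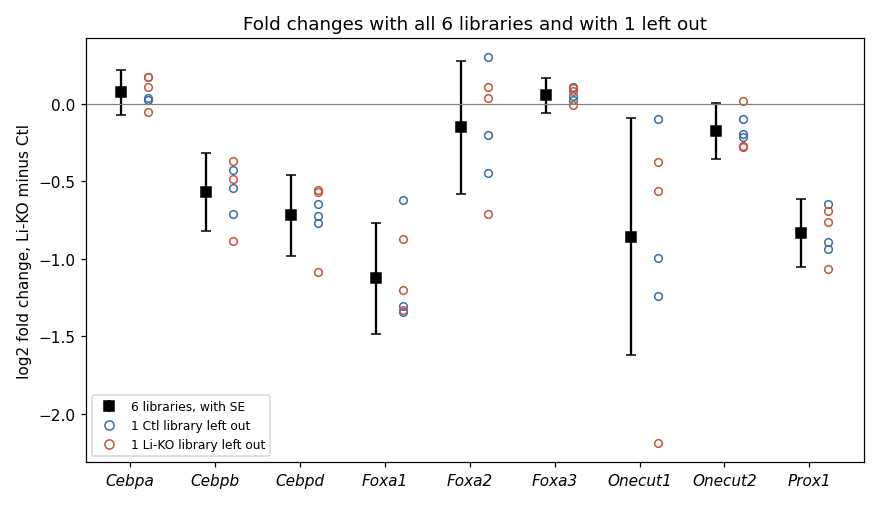
Log2 fold change (Li-KO minus Ctl) of each factor with its SE over all 6 libraries (black squares) and with 1 library left out (open circles, blue for a Ctl and red for a Li-KO library). Cebpb, Cebpd, Foxa1, Onecut1 and Prox1 stay below 0 in all 6 such fits, and Cebpa, Foxa2, Foxa3 and Onecut2 cross 0.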

How the data were processed

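Estimated counts and FPKM were deposited by the authors for 3 Ctl and 3 Li-KO libraries, made with a stranded total RNA kit. Per the submitters' processing notes, STAR, the mm10 build, Cufflinks and Cuffdiff were used; their versions and the annotation and strand used are not given there. Per the file headers, the deposited raw fragments are estimated counts without scaling (3.29% of values not whole) and FPKM are per length after scaling by Cuffdiff. WT rows were taken as Ctl and KO rows as Li-KO, with the replicate number that the titles carry. The 77 genes skipped in some library were left out. Counts were rounded, filtered with filterByExpr of edgeR 4.0.16 (minimum count 10), scaled by TMM and tested over all 16533 genes by two-sided quasi-likelihood with group as the only term and Benjamini-Hochberg adjustment. The script was tested on simulated data. Alternatives used other scalings, no filter, DESeq2 1.42.0, limma 3.58.1 on counts (voom) or FPKM, the replicate number as a block, and each library left out. Of 48432 gene IDs, 48051 matched a symbol; positions are GENCODE M21 and promoter windows RefSeq. The members and lists were chosen with earlier results of these data known. Named genes were the 9 members, Klf15, up to 3 called genes per list (2 for cell type lists) by p, annotated neighbours within 5 kb and the 3 nearest patterns to each called member; other list genes named were chosen after their values were seen. Some genes under this rule are not reported here.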

Additional observations from a re-analysis of the deposited data

How the results depend on the processing

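Prox1 was the only one of the 9 factors called with RLE, upper quartile or total count scaling in edgeR and with limma-voom, as in the main analysis. DESeq2 called 2 factors (Prox1 and Foxa1) and 3158 genes in all, and the fit without a filter on low counts also called 2. With limma on FPKM, 0 factors were called. All genes called were then 1271 with log2(FPKM + 0.1) and 1172 with log2(FPKM + 1), both for genes of mean FPKM at least 0.1, and 905 with all genes above 0; the adjusted p of Prox1 was 0.0845, 0.0877 and 0.114. Foxa3, near 0 throughout, turned to -0.043, -0.042 and -0.043 in these 3 fits. With each library left out in turn, 0 to 3 factors and 432 to 2549 genes were called, from fewer samples. The log2 fold change then ranged from -0.051 to 0.177 for Cebpa, -0.71 to 0.30 for Foxa2, -0.004 to 0.11 for Foxa3 and -0.276 to 0.022 for Onecut2, none of them called in any of these fits.

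With the replicate number as a block (replicate block), 2 factors (Prox1 at an adjusted p of 0.0104 and Foxa1 at 0.0181) and 1971 genes were called. The labels do not say what the numbers share, and deviations of same-numbered libraries correlated at 0.018, 0.081 and 0.067 for replicates 0, 1 and 2; replicate 0 of Li-KO correlated best with replicate 1 of Ctl. Low levels limit Cebpd, at 161 to 503 counts per library.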
